A study of Mus musculus with 5 samples.

Results

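RNA Polymerase II phosphorylated on serine 2 was compared between *Parp14*+/+ and *Parp14*−/− Th2 cultures that had both received PJ34, with 1 library on each side. Genes were taken from the deposited table of 11608 rows where the average peak height multiplied by the number of active regions came to 50 or more in either of these 2 libraries, a limit called the floor here. An active region is a stretch of overlapping enriched intervals, merged over 8 libraries. The top of the fragment pile-up is read in every active region of a gene, and the average peak height is the mean of these tops. The floor was passed by 702 rows. Rows of 1 chromosome with the same number of regions and identical heights in all 4 ChIP libraries were counted once, which left 622 genes, and 49 of them stand for 129 rows. A shared entry is given below by all of its names. Neighbours with different numbers of regions can share a peak too, and these are still counted apart.

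The study asked which genes need PARP-14 or ADP-ribosyltransferase activity for their transcription in Th2 cells, and PJ34 was its inhibitor of that activity. Spleen CD4+CD62L+ naïve T cells of C57BL/6 mice aged 6 to 8 weeks, wild type (*Parp14*+/+) or without PARP-14 (*Parp14*−/−), were stimulated through CD3 and CD28 over 3 days in medium with IL-4 (10 ng/ml) and an antibody to IFN-γ (10 ng/ml). They were then grown for 4 days in 50 U/ml IL-2 and 10 ng/ml IL-4. The dose of PJ34 is 10 µM in the sample labels and 5 µM in the methods of the study, and the labels give it to cells already differentiated where the methods describe culture in its presence. Each genotype also has an untreated library, *Parp14*+/+ and *Parp14*−/−, used here only to set values beside the treated pair, and the Input, a mixture of both genotypes, was not used. The authors reduced each library to 8.2 M alignments.

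PARP-14 is an ADP-ribosyltransferase with macro domains that acts as a cofactor of STAT6, the transcription factor activated by IL-4. PJ34 inhibits enzymes of the PARP family broadly. Serine 2 of the polymerase tail is phosphorylated during elongation, so this form of the enzyme is found over gene bodies and past gene ends, and its height over a gene reads ongoing transcription. The cultures are bulk samples, in which fewer cells that transcribe a gene and less polymerase on it per cell cannot be told apart.

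*Parp14* itself, on chromosome 16, has 3 active regions and lay under the floor. Its average height was 11 in *Parp14*+/+ + PJ34 and 6.67 in *Parp14*−/− + PJ34, against 8 and 6.67 in the untreated *Parp14*+/+ and *Parp14*−/−. Enriched intervals covered 59.2% of the gene in *Parp14*+/+ and 53.9% in *Parp14*+/+ + PJ34, against 6.95% in *Parp14*−/− and 8.51% in *Parp14*−/− + PJ34. Over all 622 genes the median covered share was lower in both *Parp14*−/− libraries as well, at 41.4% in *Parp14*+/+ and 27.5% in *Parp14*+/+ + PJ34 against 21.7% in *Parp14*−/− and 16.6% in *Parp14*−/− + PJ34. The height of *Parp14* did not separate the genotypes beyond counting error, with a scaled ratio of 1.46 and a 95% interval of 0.813 to 2.68 in the treated pair.

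The labelled cell type was checked against marker genes. Of 7 Th2 markers all are in the table, and 7 had an interval in *Parp14*+/+ + PJ34 and 6 in *Parp14*−/− + PJ34, where *Il5* had none. Their summed height was 245 in *Parp14*+/+ + PJ34 and 141 in *Parp14*−/− + PJ34, against 296 in *Parp14*+/+ and 181 in *Parp14*−/−. In each of these sums the *Il13* peak, 33 and 10 with PJ34, is counted on its own and again within *Il4*. Heights and sums in this paragraph are not scaled. Of 6 T cell markers the table holds 5, and 4 of these had an interval in *Parp14*+/+ + PJ34 and 3 in *Parp14*−/− + PJ34, and their tallest gene, *Cd2*, stood at 61 and 36. The 5 summed to 147 and 90 (103 and 114 untreated), with scaled ratios from 1.11 to 1.77 whose intervals all hold 1. *Cd4* was low in every library, at 6.5 in *Parp14*+/+ + PJ34 and 7 in *Parp14*−/− + PJ34. *Tbx21* and *Ifng*, which define Th1 cells, carried intervals in all 4 libraries, with heights of 22 and 20 in *Parp14*+/+ + PJ34 and 19 and 14 in *Parp14*−/− + PJ34. Of 5 B cell markers looked for, all in the table, *Cd79a* alone had an interval, at 36 and 28, while *Cd79b*, *Ms4a1* and *Pax5* stood at 5.5 or less in both treated libraries. The summed height of the 5 was 66 and 54. Of the myeloid markers in the table, *Csf1r* and *Itgam* summed to 21 and 13, *Fcer1g* stood at 7 and 4, and *Cd68*, which shares its region with genes named further on, at 52 and 58. *Cd8a* stood at 6 and 4 with no interval. *Eomes*, of CD8 T and NK cells, stood at 4.5 in *Parp14*+/+ + PJ34 and 6 in *Parp14*−/− + PJ34, and none of the 2 regulatory T cell, 2 other NK cell and 3 erythroid markers looked for is in the table. The part of other cells in the results was not tested.

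Before scaling, the median ratio of *Parp14*+/+ + PJ34 to *Parp14*−/− + PJ34 was 1.13 over the 11540 genes with a height above 0 in both libraries, a log2 shift of 0.18. The corresponding median of the untreated pair was 1.00. Each ratio was divided by the median of its own pair, and a gene is called higher in *Parp14*+/+ + PJ34 above 1.4 and lower below 0.7. The study used these 2 limits on ratios that were not scaled, with closer limits for genes of high signal that are not used here. Each ratio carries a 95% interval, the exact Clopper-Pearson interval of both summed heights read as counts. Such an interval holds counting error alone, and a difference between the 2 libraries has no replicate check.

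Of the 622 genes, 46 (7.4%) were higher in *Parp14*+/+ + PJ34 and 60 (9.65%) were lower. Without scaling the calls were 111 higher and 28 lower, so that 79.9% of calls were on the *Parp14*+/+ + PJ34 side against 43.4% after scaling. The interval lay above 1 for 26 genes (4.18%), 25 of them among the 46, and below 1 for 60 (9.65%), 51 of them among the 60 called lower. The scaled ratios ran from 0.306 to 1.92 with a median of 1.03 and quartiles of 0.869 and 1.18. The floor was passed in both libraries by 345 genes, in *Parp14*+/+ + PJ34 alone by 213 and in *Parp14*−/− + PJ34 alone by 64. Only 5 of the genes called higher and 21 of those called lower passed it in both, and a gene that passed through 1 library had to be the taller there. At the floor itself, the 39 genes with a summed height of exactly 50 in the taller library held 1 higher and 2 lower calls, and the 36 genes at 49, just outside, held 2 and 6.

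**Figure D1:**
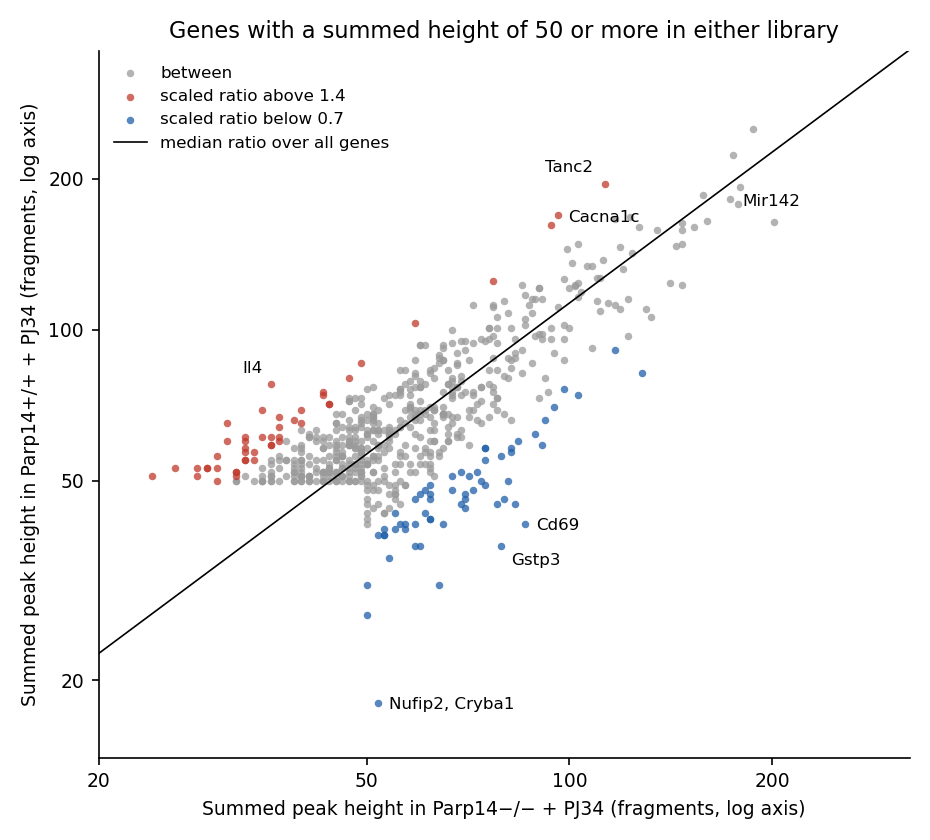
Summed peak height (average height times active regions, in fragments, log axes) of the 622 genes in *Parp14*−/− + PJ34 (horizontal) and *Parp14*+/+ + PJ34 (vertical), 1 point a gene. Red points have a scaled ratio above 1.4 (46 genes), blue points one below 0.7 (60 genes), and the line is the median unscaled ratio of 1.13. The empty corner at the lower left is the floor of 50.

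Among the genes higher in *Parp14*+/+ + PJ34, the lower bound of the interval was greatest for *Il4*, *Cacna1c*, *Tanc2*, *Limd1* and *Slco3a1*. *Il4*, the cytokine that drives Th2 differentiation, has 2 active regions and stood at 39 in *Parp14*+/+ + PJ34 and 18 in *Parp14*−/− + PJ34 (61 and 29 untreated), with a scaled ratio of 1.92 (1.28 to 2.93). Its summed heights with PJ34 were 78 and 36. These equal its own peak, 45 and 26, added to the height of its neighbour *Il13*, 33 and 10. The *Il4* peak alone lies under the floor, and its ratio was 1.54 by the tallest peak of the track over the gene. Heights in brackets are those of the untreated libraries, *Parp14*+/+ first. *Cacna1c* encodes the pore of an L-type calcium channel and is a long gene with 23 active regions. Its average height was 7.35 in *Parp14*+/+ + PJ34 and 4.17 in *Parp14*−/− + PJ34 (6.87 and 5.13 untreated), a ratio of 1.56 (1.21 to 2.02). *Tanc2*, a scaffold protein gene on chromosome 11, stood at 12.2 and 7.06 (10.1 and 7.69 untreated), a ratio of 1.53 (1.2 to 1.94). Intervals covered 76.4% of *Tanc2* in *Parp14*+/+ + PJ34 and 47.1% in *Parp14*−/− + PJ34. *Limd1*, a LIM domain adaptor, had 16.2 and 7.75 (16 and 10.8 untreated), a ratio of 1.85 (1.19 to 2.94). *Slco3a1*, an organic anion transporter with 17 active regions, had 9.53 and 5.53 (9.18 and 6.59 untreated), a ratio of 1.52 (1.18 to 1.99). In these 5 genes *Parp14*+/+ + PJ34 was the taller of the treated libraries and *Parp14*+/+ the taller of the untreated ones.

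The other 7 genes with the highest lower bounds were *Marchf6*, *Usf1*, *Inpp5a*, *Rbm5*, *Taok1*, *Nsf* and *Lyst*. *Usf1*, an E-box binding transcription factor, had heights of 25.5 in *Parp14*+/+ + PJ34 and 12 in *Parp14*−/− + PJ34 (22 and 17 untreated) and a ratio of 1.88 (1.14 to 3.19). *Rbm5*, a splicing regulator, had 17.7 and 8.67 (13 and 11.3 untreated) and a ratio of 1.80 (1.11 to 3.00). *Marchf6* encodes a ubiquitin ligase of the endoplasmic reticulum. It stood at 9.86 and 5 with PJ34 and at 6.71 and 8 without, so the taller genotype was not the same in the 2 pairs, with ratios of 1.74 (1.15 to 2.70) and 0.839 (0.557 to 1.26). *Taok1*, a kinase of the MAP kinase cascades, had 8.57 and 4.43, a ratio of 1.71 (1.09 to 2.73). *Nsf*, the ATPase of vesicle fusion, had 9.56 and 5.44, and *Lyst*, a regulator of lysosome traffic, had 8.33 and 5.13. Their ratios were 1.55 (1.08 to 2.25) and 1.44 (1.07 to 1.93). *Inpp5a*, an inositol phosphate phosphatase, had 9.36 and 5.36 and a ratio of 1.54 (1.11 to 2.16). By the tallest peak of the track over the gene, in place of the average, *Taok1* was 1.11 and *Marchf6* 1.30, between the limits. *Lyst* was 1.36 with 1 added to each height and 1.396, just under the limit, with the median of the 622 genes as the scale. Of these 12 genes, 10 had 3 or more active regions, and *Il4* and *Usf1* had 2.

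The genes lower in *Parp14*+/+ + PJ34 included taller ones. *Nufip2* and *Cryba1*, an RNA-binding protein gene and a lens crystallin gene that share 1 active region, had the lowest ratio, with a height of 18 in *Parp14*+/+ + PJ34 and 52 in *Parp14*−/− + PJ34 (21 and 33 untreated) and a ratio of 0.306 (0.169 to 0.532). *Cd69*, a surface receptor that marks recently activated lymphocytes, stood at 41 and 86 (29 and 88 untreated), a ratio of 0.422 (0.283 to 0.619). The untreated libraries had the same order for *Cd69*, with a ratio of 0.330 (0.209 to 0.506). *Nabp1*, a single-stranded DNA binding protein, stood at 45 and 83 (32 and 87 untreated), a ratio of 0.480 (0.326 to 0.698). *Gstp3*, a glutathione transferase, had 37 and 79 with PJ34 and 38 and 44 without, so its difference in height lay mainly between the treated libraries. Its ratio was 0.414 (0.273 to 0.620).

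Of the other genes with the lowest upper bounds, *Dusp4*, a phosphatase of MAP kinases whose region holds LOC675578 as well, had 46 in *Parp14*+/+ + PJ34 and 80 in *Parp14*−/− + PJ34 (41 and 50 untreated), a ratio of 0.509 (0.346 to 0.740). *Kansl3*, a subunit of a histone acetyltransferase complex, had 9 and 15.6 over 5 active regions, a ratio of 0.510 (0.346 to 0.746). *Efl1*, a GTPase of ribosome maturation, had 11.7 and 18.3 over 7 regions, a ratio of 0.566 (0.424 to 0.754). *Mid1*, a ubiquitin ligase gene on chromosome X, had 44 and 70 (48 and 82 untreated), a ratio of 0.556 (0.372 to 0.822). The remaining 3, *Rps20*, the shared entry of *H1f2* and *H3c3*, and *H2bc3*, belong to the ribosomal protein and histone genes described further on.

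The calls differed with the form of the gene. The 101 genes with 1 active region had a median scaled ratio of 0.835, with 3 higher and 30 lower. Genes with 2 regions (89) had a median of 0.95, and those with 3 to 4 (79) one of 1.00. From 5 regions on the medians were 1.10 (197 genes with 5 to 8), 1.09 (122 with 9 to 14) and 1.12 (34 with 15 to 34), and these classes held 18 higher and 9 lower, 4 and 2, and 4 and 0 calls. Without scaling the median of genes with 1 region was 0.943, still below 1, and that of genes with 2 regions was 1.07. In length, the 86 genes under 10 kb had a median ratio of 0.777 with 4 higher and 28 lower, and the 230 genes from 30 kb to 100 kb one of 1.10 with 27 higher and 12 lower, while the 229 genes over 100 kb had 1.05 with 9 higher and 8 lower. Genes called higher had a median length of 60906 bp and 5 active regions, and genes called lower 12341 bp and 1.5 regions, where genes between the limits had 84630.5 bp and 6 regions and all 622 had 77375.5 bp and 5. Height moved with this as well. The 89 genes whose average height, taken as the mean of both libraries, was 50 or more held 0 higher and 22 lower calls, and the 310 genes under 10 held 25 and 5. Without scaling the median ratio was 0.970 for the 89 genes and 1.26 for the 310. The tall genes were thus close to level before each ratio was divided by 1.13, and their calls depend on that scale. A gene of 1 region passes the floor only with a tall peak, so length, region number and height were not separated here.

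**Figure D2:**
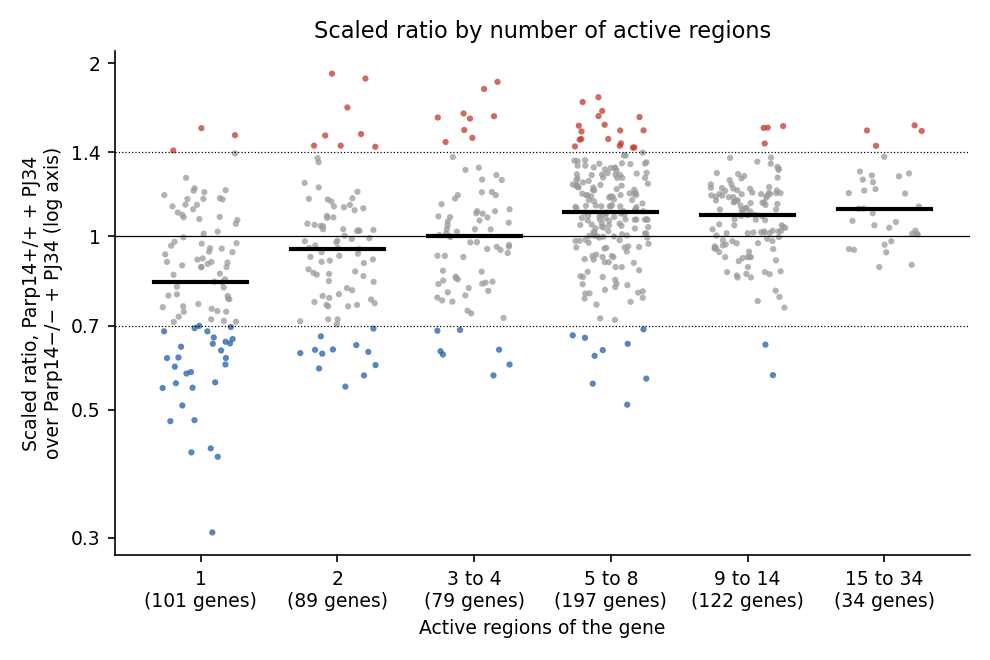
Scaled ratio of *Parp14*+/+ + PJ34 to *Parp14*−/− + PJ34 (log axis) of the 622 genes by number of active regions. Each point is a gene, red above 1.4 and blue below 0.7, and bars are medians, which run from 0.835 with 1 region to 1.12 with 15 to 34. Dotted lines mark the 2 limits.

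The untreated pair shares no library with the treated pair, although both use the same merged regions. The median ratio *Parp14*+/+ to *Parp14*−/− was 1.2 for the 46 genes called higher with PJ34 and 0.715 for the 60 called lower, against 1.00 for all 622. Of the 46, 37 had an untreated ratio above 1 and 7 were above 1.4. Of the 60, 50 were below 1 and 27 below 0.7. Over all 622 genes, 299 were above 1 and 309 below, and 25 (4.02%) and 55 (8.84%) passed the limits in the untreated pair. Pearson's r between the log2 ratios of the pairs was 0.562 across these genes, which are not independent replicates, and 0.612 across the 101 genes with 1 region. Among genes past both a limit and their interval, *Mcl1*, *Srsf7* and *Sytl3* differed least between the pairs. *Mcl1*, a survival gene of the BCL2 family, had 0.684 with PJ34 and 0.681 without. *Srsf7*, a splicing factor, had 0.656 and 0.653, and *Sytl3*, a protein of vesicle traffic, 1.60 and 1.60. *Fam171b*, *Marchf6* and *Gstp3* differed most, and whether their ratios differ with PJ34 was not tested.

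Of 26 genes on the list for Th2 cells, 24 are in the table and 6 passed the floor, 1 higher and 5 between the limits, with a median ratio of 1.08 against 1.03 for all 622 genes. *Il4* is the one called, with the *Il13* peak in its sum, and its own peak of 45 and 26 would not pass the floor. Of all 622 genes 7.4% were higher and 9.65% lower, shares to set beside each list below. *Gata3*, the master transcription factor of Th2 cells, shares its region with LOC100040768 and 4930412O13Rik. It had a height of 58 in *Parp14*+/+ + PJ34 and 43 in *Parp14*−/− + PJ34 (60 and 45 untreated), a ratio of 1.19 (0.791 to 1.81). *Il24* and *Il10*, cytokines of 1 family on chromosome 1, stood at 63 and 52 and at 61 and 50, with ratios of 1.07 (0.731 to 1.58) and 1.08 (0.730 to 1.60), the latter with *Mapkapk2* in its region. *Il2ra*, a chain of the IL-2 receptor, shares a region with *Il15ra* and stood at 138 and 112 (112 and 145 untreated), a ratio of 1.09 (0.843 to 1.41). *Il4ra*, a chain of the IL-4 receptor, went the other way, with 110 and 130 (132 and 160 untreated) and a ratio of 0.749 (0.575 to 0.972). Under the floor, *Rad50*, *Il13* and *Il5*, neighbours of *Il4*, had ratios of 1.77 (1.02 to 3.14), 2.92 (1.41 to 6.64) and 3.10 (1.21 to 9.38). The height of *Il13* is also part of the sum of *Il4*, so *Il13* is not separate from it. *Csf2* and *Il3*, cytokine genes elsewhere on chromosome 11, stood at 42 and 35 and at 36 and 32, with ratios of 1.06 (0.662 to 1.71) and 0.995 (0.601 to 1.66). The untreated ratios of those 2 genes were 1.52 and 2.00. With a floor of 20, the list had 17 genes, 4 higher and 0 lower, where 11.3% of 3910 genes were higher and 10.3% lower. *Il4*, *Il13* and *Il5*, neighbours at 1 locus, are among the 4 higher. With the *Il13* peak in the sum of *Il4*, the 4 are not separate observations.

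Of the Th1 list 2 genes passed the floor and neither was called. *Stat4*, which transmits the IL-12 signal, has 9 regions and average heights of 7.56 in *Parp14*+/+ + PJ34 and 8.89 in *Parp14*−/− + PJ34, so that its ratio was 0.752 (0.536 to 1.05), and 0.556 by the tallest peak of the track. *Gzmb*, a cytotoxic granule protease, had 58 and 65 (53 and 80 untreated), a ratio of 0.789 (0.544 to 1.14). Both intervals hold 1, so a difference was not detectable at this depth. The table holds 10 SOCS and PIM genes, and 3 passed the floor, with a median of 0.713 that is 0.806 without scaling. All 3 have 1 active region, a class with a median of 0.835 and 29.7% lower. *Cish*, an inhibitor induced by STAT5, shares its region with *Hemk1* and 6430571L13Rik. It stood at 62 in *Parp14*+/+ + PJ34 and 89 in *Parp14*−/− + PJ34 (87 and 92 untreated), a ratio of 0.616 (0.438 to 0.862), and is called lower. The kinase gene *Pim1* had 75 and 93 and a ratio of 0.713 (0.519 to 0.978). *Socs1*, in 1 region with *Tnp2*, *Prm3* and *Prm2*, had 52 and 62 and a ratio of 0.742 (0.503 to 1.09). None of the 3 IRF genes past the floor was called. *Irf1* stood at 110 and 119, a ratio of 0.818 (0.625 to 1.07), and *Irf9*, the DNA-binding part of the complex formed with STAT proteins after interferon, at 60 and 63, a ratio of 0.842 (0.582 to 1.22). *Irf2* had 8.5 and 5.75 over 8 regions, a ratio of 1.31 (0.886 to 1.94), and was above 1 where the other 2 were below.

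The interferon-induced genes past the floor were lower in *Parp14*+/+ + PJ34. The table holds 36 of them. The floor was passed by 5, and 5 of 5 were called lower, with a median ratio of 0.634 (0.716 without scaling) against 1.03 for all genes, of which 9.65% were lower, and of those with 1 region, as *Irgm1*, *B2m* and *Gbp4* have, 29.7%. These 5 are not all separate, since *Gbp4* and *Gbp9* appear to share their tallest peak, with 0.655 each by the track. Without scaling 2 of the 5, *Irgm1* and *Tgtp1*, were below 0.7, and with 1 added to each height *Gbp9* was at 0.702, just outside it. *Irgm1*, *Tgtp1* and *B2m* passed through *Parp14*−/− + PJ34 alone and so had to be the taller there. *Gbp4* and *Gbp9* passed in both libraries, but with the peak that they appear to share they are not separate observations. *Irgm1*, an immunity-related GTPase, stood at 49 in *Parp14*+/+ + PJ34 and 75 in *Parp14*−/− + PJ34 (31 and 91 untreated), a ratio of 0.578 (0.395 to 0.839). *Tgtp1*, a GTPase of the same family, had 14 and 20.7 (10.3 and 27 untreated), a ratio of 0.599 (0.395 to 0.901). *B2m*, the light chain of MHC class I, had 48 and 67 (40 and 64 untreated), a ratio of 0.634 (0.428 to 0.932). The guanylate-binding protein genes *Gbp4* and *Gbp9*, neighbours on chromosome 5, had 70 and 95 and 22.8 and 29.2, with ratios of 0.652 (0.472 to 0.897) and 0.688 (0.517 to 0.913). The order of the genotypes was the same in the untreated pair, whose median for the 5 was 0.504. For *Irgm1* and *Tgtp1*, by unscaled height, *Parp14*+/+ + PJ34 lay above *Parp14*+/+ and *Parp14*−/− + PJ34 below *Parp14*−/−, so that the treated libraries stood nearer to each other than the untreated ones. With a floor of 20, 10 of 17 members were lower and 0 higher, where 10.3% of 3910 genes were lower. Those under the floor of 50 included *Gbp6*, *Gbp7*, *Ifih1*, *Ifi47* and *Samhd1*, with ratios of 0.531, 0.544, 0.615, 0.617 and 0.643, and each of these 5 intervals holds 1. *Psmb8*, *Psmb9*, *Tap1* and *Tap2*, which share 1 region, had 35 in each treated library.

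Since these genes lay on the same side, their promoters were read from the mm9 genome (NCBIM37), from 250 bases before to 50 bases after the gene start of the table, with *Il4* beside them. Motifs were searched on both strands, and capitals mark a match. They were GAAA followed by GAAA with 2 bases of any kind between, the core of the interferon-stimulated response element (ISRE core), TTC and GAA with 3 or with 4 bases between, paired STAT half-sites, GGGA and TTCC with 2 bases between, an NF-kB site, and TGACGTCA, the cyclic AMP response element. The windows, 300 bases each, are in the order chr11:48684799-48685098, chr11:48805701-48806000, chr5:105568522-105568821, chr5:105539248-105539547 and chr11:53432118-53432417 on the minus strand for all but *B2m*, which is chr2:121973173-121973472 on the plus strand.
Irgm1: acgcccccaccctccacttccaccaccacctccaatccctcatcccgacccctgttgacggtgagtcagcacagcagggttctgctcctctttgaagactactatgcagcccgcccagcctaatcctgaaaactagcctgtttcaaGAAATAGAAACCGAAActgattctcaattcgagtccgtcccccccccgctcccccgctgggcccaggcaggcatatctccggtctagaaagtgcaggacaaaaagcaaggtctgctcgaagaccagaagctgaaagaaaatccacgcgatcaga
Tgtp1: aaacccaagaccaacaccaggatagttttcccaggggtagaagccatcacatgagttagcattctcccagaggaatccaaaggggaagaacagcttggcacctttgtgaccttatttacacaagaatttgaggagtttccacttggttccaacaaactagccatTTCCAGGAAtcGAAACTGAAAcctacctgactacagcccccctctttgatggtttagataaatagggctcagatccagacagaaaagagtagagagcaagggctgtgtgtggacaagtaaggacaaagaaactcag
Gbp4: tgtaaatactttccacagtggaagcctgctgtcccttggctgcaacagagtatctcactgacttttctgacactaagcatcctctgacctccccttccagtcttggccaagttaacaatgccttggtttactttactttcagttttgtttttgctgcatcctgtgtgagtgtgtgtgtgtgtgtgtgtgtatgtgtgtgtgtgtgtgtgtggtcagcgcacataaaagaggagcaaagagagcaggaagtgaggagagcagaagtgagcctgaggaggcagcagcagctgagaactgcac
Gbp9: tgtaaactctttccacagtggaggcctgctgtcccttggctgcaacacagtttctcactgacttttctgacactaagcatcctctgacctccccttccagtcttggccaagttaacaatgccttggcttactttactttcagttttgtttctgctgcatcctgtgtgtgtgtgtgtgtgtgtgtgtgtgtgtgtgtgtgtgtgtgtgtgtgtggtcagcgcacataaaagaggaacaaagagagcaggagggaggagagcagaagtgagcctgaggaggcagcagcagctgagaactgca
Il4: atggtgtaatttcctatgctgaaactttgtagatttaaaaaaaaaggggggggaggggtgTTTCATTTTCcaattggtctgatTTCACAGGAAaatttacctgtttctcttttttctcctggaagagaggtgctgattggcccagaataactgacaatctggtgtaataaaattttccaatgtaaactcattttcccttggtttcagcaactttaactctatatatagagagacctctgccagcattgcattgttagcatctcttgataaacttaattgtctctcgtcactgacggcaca
B2m: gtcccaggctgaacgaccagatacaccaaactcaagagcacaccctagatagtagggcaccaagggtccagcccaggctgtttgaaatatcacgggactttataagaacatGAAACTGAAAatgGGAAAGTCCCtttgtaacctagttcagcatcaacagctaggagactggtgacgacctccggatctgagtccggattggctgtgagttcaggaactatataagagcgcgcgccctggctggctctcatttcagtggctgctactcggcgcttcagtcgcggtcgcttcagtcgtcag
The ISRE core was found in 19 of the 36 promoters of interferon-induced genes in the table, 52.8% (Wilson 95% interval 37.0% to 68.0%), and in 3.26% of the promoters of all 11605 gene starts. It was in the windows of *Irgm1*, *Tgtp1*, *B2m* and *Il4* and not in those of *Gbp4* and *Gbp9*. In *Irgm1* 2 matches overlap, from base −104 to base −89 relative to the gene start. *B2m* holds the NF-kB site as well. *Tgtp1* also holds the STAT pair with 3 bases between, a motif in 22.2% of the list's promoters and 6.71% of all. Among the gene starts past the floor, the ISRE core was in 5 of 81 promoters of genes called lower (6.17%, 2.67% to 13.6%) and 2 of 47 of those called higher (4.26%, 1.17% to 14.2%), with each row of a shared entry counted, and these intervals overlap. The pair with 4 bases between was in 5 of the 47 higher (10.6%, 4.63% to 22.6%) and 5 of the 81 lower (6.17%, 2.67% to 13.6%), against 5.58% of all, and *Il4* holds 1 match. These intervals overlap too, and the pair with 3 bases between was in 5 of the 47 (10.6%) and 8 of the 81 (9.88%). The NF-kB site was in 2.14% of promoters past the floor and 1.46% of all. TGACGTCA was in 3.12% of all promoters and in none of the printed windows. A match describes the letters of a window and no binding was measured.

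Most histone genes past the floor were lower in *Parp14*+/+ + PJ34 too. The table holds 67, and 6 entries passed the floor, 4 lower, 2 between and 0 higher, with a median ratio of 0.613 (0.693 without scaling), against 9.65% lower of all genes. Of the lower ones, *H2bc3* and *H2ac4* are not separate from the shared entry of *H1f2* and *H3c3*, whose peak their sums appear to hold. Without scaling 3 of the 6 were below 0.7. *H2bc6* and *H2bc4* passed through *Parp14*−/− + PJ34 alone, where they had to be the taller. *H1f2*, a linker histone, and *H3c3* share 1 region on chromosome 13 and stood at 50 in *Parp14*+/+ + PJ34 and 81 in *Parp14*−/− + PJ34 (49 and 72 untreated), a ratio of 0.546 (0.376 to 0.786). *H2bc3*, which encodes H2B, had 29.5 and 45.5 (28 and 43 untreated), a ratio of 0.574 (0.406 to 0.805). Its summed heights of 59 and 91 appear to be mostly the peak of *H1f2* and *H3c3*, so its ratio is not a separate result. *H2bc6* and *H2ac4* had 24 and 36 and 24.7 and 34.3, with ratios of 0.590 (0.401 to 0.862) and 0.636 (0.465 to 0.865). The summed heights of *H2ac4*, 74 and 103, equal those of *H1f2* with *H3c3* added to those of *H3c2*, 24 and 22. Those of *H2bc6*, 48 and 72, equal those of *H1f4*, 26 and 43, added to those of *H4c4*, 22 and 29. For *H2bc4*, 43 and 53 equal those of *H2ac6*, 14 and 15, added to those of *H4c3*, 29 and 38. *H1f4*, *H4c4*, *H2ac6* and *H4c3* each lie under the floor. The 2 between the limits were *H2bc4*, at 0.718 (0.469 to 1.09), and *H3f3b*, a replication-independent H3 gene whose region holds *Itgb4* and *Galk1*, at 0.780 (0.553 to 1.10). With a floor of 20, 16 of 28 entries were lower and 1 was higher, against 10.3% and 11.3% of all genes at that floor. Neighbouring entries share peaks there as well. The treated and untreated pairs gave like medians for the 6, 0.613 and 0.691. *H2bc6* was close to level without PJ34, at 29 and 29.5. Of the 29 DNA replication and nucleotide synthesis genes in the table, *Rfc4* alone passed the floor, through *Parp14*−/− + PJ34 alone, at 23.5 and 31, a ratio of 0.671 (0.449 to 0.996), with 1.09 (0.741 to 1.62) in the untreated pair. Its summed heights of 47 and 62 appear to be mostly the peak of the adjoining *Eif4a2*, 40 and 53, which is counted again among the translation factors. With a floor of 20, 9 genes of that list had a median of 1.08, with 1 higher and 1 lower.

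All 30 immediate early genes, which respond to stimulation without new protein synthesis, are in the table, and 9 passed the floor, each with 1 active region. Of these 4 were lower, 5 between and 0 higher, with a median of 0.718 (0.811 without scaling), where the 101 genes of 1 region had 0.835 and 30 of them (29.7%) were lower. Of the 4 lower ones, *Ier5*, *Myc* and *Egr3* passed the floor through *Parp14*−/− + PJ34 alone, where they had to be the taller. *Ier5* had the lowest ratio, with 37 in *Parp14*+/+ + PJ34 and 60 in *Parp14*−/− + PJ34 (42 and 59 untreated), 0.546 (0.352 to 0.835). *Myc*, a growth regulator, had 42 and 62 (40 and 71 untreated), a ratio of 0.599 (0.395 to 0.901). *Egr3* and the antiproliferative gene *Btg1* were the other 2 called lower, each at 0.615. *Egr3* stood at 30 in *Parp14*+/+ and 29 in *Parp14*−/−, so its genotypes were level without PJ34 and at 41 and 59 with it. *Nr4a3*, an orphan nuclear receptor gene whose region holds LOC100040788, had 57 and 64 and a ratio of 0.788 (0.542 to 1.14). *Dusp2*, in 1 region with *Astl*, had 59 and 46 and was the one of the 9 above 1, at 1.13 (0.759 to 1.71).

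Of 32 T cell receptor and costimulation genes, 7 entries passed the floor, 1 higher, 1 lower and 5 between, with a median of 0.885 that came to 1.00 without scaling. *Cd69* is the lower one. *Cd2*, an adhesion receptor of T cells, stood at 61 in *Parp14*+/+ + PJ34 and 36 in *Parp14*−/− + PJ34 (36 and 41 untreated), a ratio of 1.5 (0.977 to 2.33), and *Parp14*+/+ + PJ34 was the one library apart from the other 3. *Ctla4*, an inhibitory receptor, had 70 and 58 (95 and 67 untreated), a ratio of 1.07 (0.743 to 1.54). *Tnfrsf4* and *Tnfrsf18*, costimulatory receptors, share a region with *B3galt6*, *Sdf4*, LOC100043436 and *Ttll10*, which had 46 and 55 and a ratio of 0.740 (0.489 to 1.11), but 0.226 by the tallest peak of the track. Of the NF-kB list 4 of 15 passed the floor, 1 in each direction, against 7.4% higher and 9.65% lower of all genes. *Relb*, a subunit of the alternative pathway, had 61 and 35 (62 and 49 untreated), a ratio of 1.54 (1.00 to 2.41). *Nfkbiz*, an atypical inhibitor protein, had 25.3 and 32.7 and a ratio of 0.686 (0.502 to 0.935), which is 0.775 without scaling and then between the limits. *Nfkbia* and *Nfkb1* lay between, at 1.16 (0.785 to 1.73) and 0.858 (0.599 to 1.23), the latter shared with *Manba*. Of the BCL2 family *Mcl1* was lower, at 58 and 75 with an interval of 0.477 to 0.977, and *Bcl2*, over 12 regions, had 7.25 and 8.17 and a ratio of 0.785 (0.582 to 1.06), which was 0.523 by the tallest peak. The 3 cytokine receptor entries past the floor were *Il2ra*, *Il4ra* and *Il2rb*, of which *Il2rb* had 50 and 47 and a ratio of 0.941 (0.619 to 1.43), above 1 without scaling. No chemokine receptor gene passed the floor.

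Of the PARP family, whose enzymes PJ34 inhibits, the table holds 13 genes, of which 3 passed the floor. *Tnks*, which encodes tankyrase, stood at 13.2 in *Parp14*+/+ + PJ34 and 18.4 in *Parp14*−/− + PJ34 (12.4 and 14.2 untreated) over 5 regions, a ratio of 0.635 (0.455 to 0.880), and is called lower. By the tallest peak of the track it had 0.511, the same as its chromosome 8 neighbour *Dusp4*. The summed heights of *Tnks*, 66 and 92, appear to hold the *Dusp4* peak of 46 and 80, so its call may rest on that peak. This was not tested. *Parp6* had 14.2 and 15.2 and a ratio of 0.827 (0.566 to 1.21), and *Parp11* had 7 and 6 and a ratio of 1.03 (0.689 to 1.55). The table holds 28 polymerase II and elongation genes, and 4 passed, 2 lower and 2 between, against 9.65% lower of all genes. The 2 lower ones, *Polr2a* and *Hexim1*, passed through *Parp14*−/− + PJ34 alone, where they had to be the taller, and without scaling their ratios were 0.705 and 0.782, between the limits. *Hexim1* was between them with 1 added to each height too, at 0.706. *Polr2a*, the catalytic subunit that carries the phosphorylated tail, had 14.3 and 20.3 (16 and 18 untreated), a ratio of 0.624 (0.412 to 0.936). *Hexim1*, an inhibitor of the elongation kinase P-TEFb, had 21.5 and 27.5 (15 and 19 untreated), a ratio of 0.692 (0.453 to 1.05). *Aff1*, tied to recruitment of that kinase, had a ratio of 1.07 (0.70 to 1.64). The list thus had members on both sides of 1.

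Genes of RNA processing and translation were few past the floor. Of 40 splicing factor and hnRNP genes 7 entries passed, 3 lower and 4 between, with a median of 0.835. Among the lower ones were *Srsf7* and the shared region of *Srsf2* with *Mettl23*, *Mfsd11* and LOC100043293, which stood at 41 in *Parp14*+/+ + PJ34 and 65 in *Parp14*−/− + PJ34 (39 and 48 untreated), a ratio of 0.558 (0.368 to 0.838). *Hnrnpa2b1*, in 1 region with *Nfe2l3* and *Cbx3*, had 77 and 60 and the highest ratio of the list, 1.14 (0.800 to 1.62), and *Hnrnpf* had 0.955 (0.638 to 1.43), above 1 without scaling. The table holds 80 ribosomal protein genes, and 4 passed. *Rps20*, of the small subunit, had 27 and 50 (30 and 35 untreated) and a ratio of 0.478 (0.288 to 0.778). *Rpl3* had 0.954 (0.640 to 1.42), *Rpl4*, shared with *Zwilch* and *Snapc5*, 0.953 (0.670 to 1.36), and *Rpl35a*, shared with *Lmln*, 1.16 (0.774 to 1.75). The first 2 of these lay above 1 without scaling, as did the median of the 4, at 1.08 in place of 0.953. In the untreated pair the median of the 4 was 1.34, with 1.5 (1.02 to 2.23) for *Rpl3* and 1.56 (1.05 to 2.34) for *Rpl35a*, on the other side of 1 from 0.953. With a floor of 20, 14 of 65 ribosomal protein entries were lower and 2 higher, against 10.3% and 11.3% of all genes there. Of the translation factors 1 of 5 was lower, *Eif4a2*, an RNA helicase of initiation, at 40 and 53 and a ratio of 0.668 (0.431 to 1.03). *Eif4a1*, which shares its region with *Sox15*, *Mpdu1* and the macrophage marker *Cd68*, had 52 and 58, a ratio of 0.793 (0.535 to 1.17). *Eef1a1* had 84 and 63 and *Eif3h* 10.2 and 7.2, with ratios of 1.18 (0.841 to 1.66) and 1.25 (0.802 to 1.98). Without scaling *Eif4a2*, *Srsf7*, *Tnks*, *Mcl1* and *Rfc4* were between the limits.

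Of the other lists, 2 proteasome genes passed the floor, *Psmd14*, a deubiquitinase of the lid, at 1.34 (0.929 to 1.96) and *Psmd1* at 1.17 (0.763 to 1.81), which was 1.48 by the tallest peak. The heat shock and chaperone genes past it were *Hspa5*, the chaperone of the endoplasmic reticulum, with 45 in *Parp14*+/+ + PJ34 and 56 in *Parp14*−/− + PJ34 and a ratio of 0.711 (0.469 to 1.07), and *Hsf1*, at 1.03 (0.690 to 1.54). *Pkm*, the pyruvate kinase gene, stood alone for glycolysis, with 4933407I18Rik in its region, 48 and 51 in height and a ratio of 0.833 (0.549 to 1.26). No oxidative phosphorylation gene passed the floor. With a floor of 20, 5 of 30 of them were higher and 5 lower, against 11.3% and 10.3% of all genes there.

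**Figure D3:**
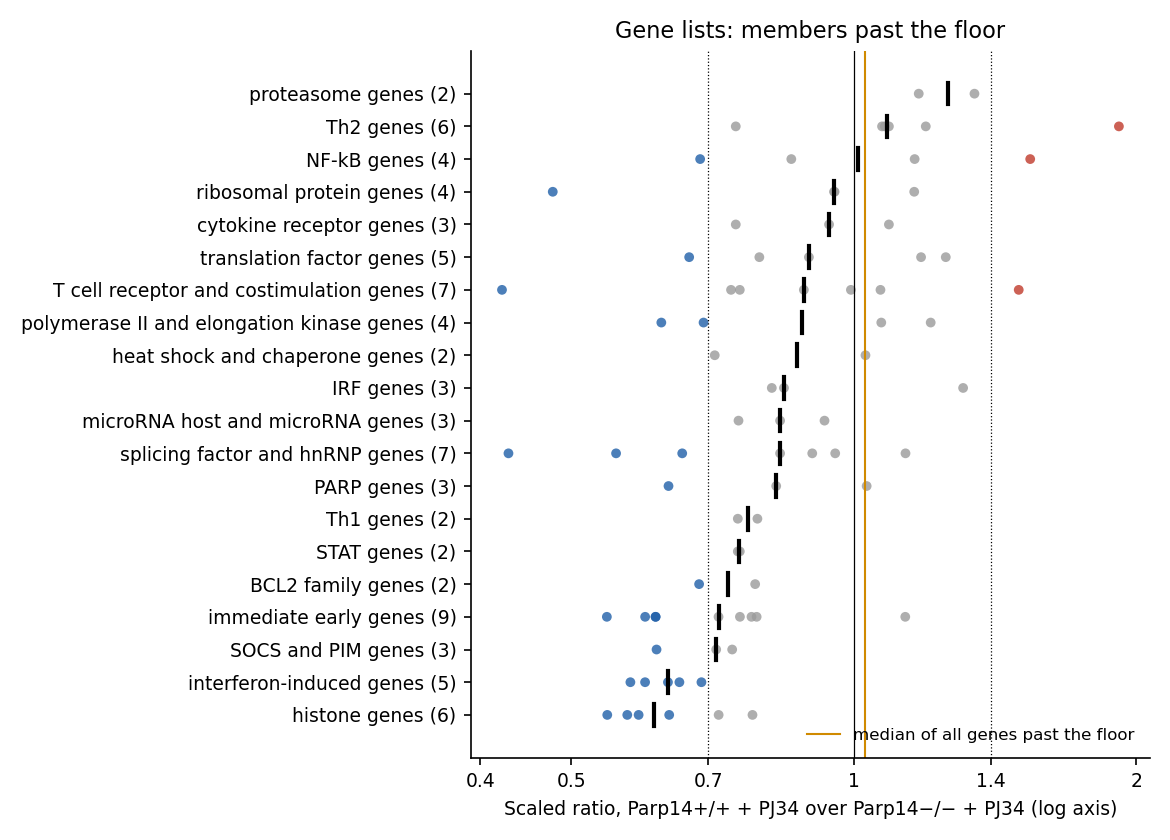
Scaled ratio of *Parp14*+/+ + PJ34 to *Parp14*−/− + PJ34 (log axis) of the members past the floor of each gene list with 2 or more, 1 point an entry, with their number in brackets and the list's median as a black bar. Red points lie above 1.4 and blue points below 0.7, and the orange line is the median of all 622 genes, 1.03. Interferon-induced and histone genes have the lowest medians, 0.634 and 0.613, and both stay below 1 without scaling. In both lists some points appear to share a peak with a neighbour.

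Of the genes with the tallest average heights, *Mir142*, a microRNA gene of blood cells, led both libraries with 182 in *Parp14*+/+ + PJ34 and 173 in *Parp14*−/− + PJ34 (172 and 184 untreated), a ratio of 0.931 (0.752 to 1.15). The shared entry of Mirn715 and LOC627695 on chromosome 17 had 148 and 147, and that of *Polg2* and *Ddx5*, an RNA helicase gene, 147 and 144. Their ratios were 0.891 (0.704 to 1.13) and 0.903 (0.713 to 1.14). *Tnfsf8*, the ligand of CD30, had 132 and 120 and a ratio of 0.973 (0.754 to 1.26). The ratios of these 4 entries lie above 1 without scaling. *Rgs1*, which turns off G proteins behind chemokine receptors, had 123 and 147 (136 and 192 untreated), a ratio of 0.740 (0.578 to 0.947). *Egr1*, an immediate early transcription factor, had 124 and 141 with PJ34 and 57 and 115 without, ratios of 0.778 (0.606 to 0.997) and 0.496 (0.354 to 0.687). Of 15 microRNA rows in the table, some of which share a region, *Mir21a*, with LOC100043687, and *Mir155*, with *Mrpl39*, passed the floor beside *Mir142*. *Mir21a* stood at 92 and 108 (78 and 121 untreated), a ratio of 0.754 (0.564 to 1.00), and *Mir155* at 50 and 53, a ratio of 0.835 (0.556 to 1.25). None of the 3 was called. Their mature sequences follow from RefSeq (GRCm38.p6) to identify them, with the seed, bases 2 to 8, in capitals, and no 2 of the 6 share a seed.
mmu-miR-142a-5p: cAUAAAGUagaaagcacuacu
mmu-miR-142a-3p: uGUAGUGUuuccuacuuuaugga
mmu-miR-21a-3p: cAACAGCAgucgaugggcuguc
mmu-miR-21a-5p: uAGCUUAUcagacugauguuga
mmu-miR-155-5p: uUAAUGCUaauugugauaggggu
mmu-miR-155-3p: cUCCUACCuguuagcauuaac

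The interval tracks of the 2 libraries overlapped in part. Of the 12014 intervals of *Parp14*+/+ + PJ34, 7076 (58.9%, Wilson 95% interval 58.0% to 59.8%) were overlapped by an interval of *Parp14*−/− + PJ34 by 1 bp or more, and of the 8841 of *Parp14*−/− + PJ34, 7074 (80.0%, 79.2% to 80.8%) were overlapped in turn. The 4938 intervals of *Parp14*+/+ + PJ34 alone had a median height of 8 and length of 3000 bp, against 11 and 6000 bp for those overlapped. The 1767 of *Parp14*−/− + PJ34 alone had 7 and 2700 bp against 9 and 5700 bp. Overlap was greater among taller intervals. In *Parp14*+/+ + PJ34 it was 25.9% of intervals under a height of 7, 46.5% from 7 to under 10, 71.0% from 10 to under 15, 90.8% from 15 to under 20, 96.1% from 20 to under 40 and 99.4% of the 173 intervals from 40 on. In *Parp14*−/− + PJ34 the lowest class already had 63.2% and the 184 intervals from 40 on had 100%. From 7 to under 10, *Parp14*+/+ + PJ34 had 4613 intervals and *Parp14*−/− + PJ34 3190, while under 7 it had 1711 against 1821. Intervals of 1 library alone were thus mostly low.

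Where 1 interval of each library overlapped no other, 3607 pairs could be compared. Their median height ratio, unscaled, was 1.14, the median length ratio 1.07, and 2044 were longer in *Parp14*+/+ + PJ34 against 1435 in *Parp14*−/− + PJ34. By mean height of the pair, the median height ratio was 1.17 under 10 (1673 pairs), 1.15 from 10 to under 20 (1456), 1.03 from 20 to under 40 (357) and 0.974 from 40 on (121). A shift like the 1.13 that scaling removes was thus seen among low pairs and not among the tallest. Highest points lay within 500 bp of each other in 39.8% of all pairs and in 76.0% of the 121 tallest.

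The 5 tallest intervals of each library with no counterpart in the other all overlap genes of the table. In *Parp14*+/+ + PJ34 they were at *Acacb* (height 40, 300 bp long), a carboxylase of fatty acid metabolism, *Ercc6l2* with C030010C08Rik (35), *Amdhd2* with *Atp6v0c* (30), *Acap1* with *Kctd11* (28) and *Cdk12* with LOC100039982 (27). *Cdk12* encodes a kinase of serine 2 of the polymerase tail, and its average height was 15.3 in *Parp14*+/+ + PJ34 and 9.33 in *Parp14*−/− + PJ34, a ratio of 1.45 (0.889 to 2.41). At *Acacb* the gene table gives 27 in *Parp14*−/− + PJ34, so a pile-up without a called interval was present there. In *Parp14*−/− + PJ34 they were at *Lbh* (33), a transcription cofactor gene, *H3c13* with *H2bc18* (30), *Taf4b* (29), *Rpl7l1* (27) and *Zfp869* (27). *Lbh* had average heights of 8.5 in *Parp14*+/+ + PJ34 and 19.5 in *Parp14*−/− + PJ34 (10 and 15 untreated), a ratio of 0.386 (0.205 to 0.698). *Taf4b*, a subunit of the general factor TFIID, had 5.5 and 7.5 over 10 regions, a ratio of 0.649 (0.450 to 0.931). *Rpl7l1* had 27 and 30 by the gene table, close to level.

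Over the body of the genes, the groups differed in where intervals lay. Of the 622 genes, 536 are 10 kb long or more, and in these the mean covered share of the last 10% of the length was 47.8% in *Parp14*+/+ + PJ34 and 37.2% in *Parp14*−/− + PJ34, and of the first 10% it was 35.0% and 32.2%. For the 42 such genes called higher, the last 10% was covered to 57.4% and 34.3% and the first to 36.9% and 24.3%. In these genes *Parp14*+/+ + PJ34 was above *Parp14*−/− + PJ34 in every step, as it was over all 536. The calls rest on heights of the same 2 libraries, so the direction of coverage in called genes was largely set by the call. Coverage was not scaled. For the 32 called lower, the first 10% was covered to 40.1% in *Parp14*+/+ + PJ34 and 52.6% in *Parp14*−/− + PJ34, and the last to 41.6% and 40.8%. The difference was greatest in the first 2 of 10 steps, and in the first the untreated libraries had 34.7% in *Parp14*+/+ and 46.8% in *Parp14*−/−. Over all 622 genes the median covered share was 27.5% in *Parp14*+/+ + PJ34 and 16.6% in *Parp14*−/− + PJ34. For genes called lower it was 37.7% and 42.0%, and for genes called higher 36.4% and 7.6%. The highest points of the 2 libraries lay within 500 bp of each other in 39 of the 55 lower genes with an interval in both (70.9%), 16 of 36 higher genes (44.4%) and 215 of 541 in all (39.7%). This share was 65.6% among genes with 1 active region and 22.2% among those with 5 or more. Of the genes called lower 50% have 1 region, against 16.2% of all 622.

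**Figure D4:**
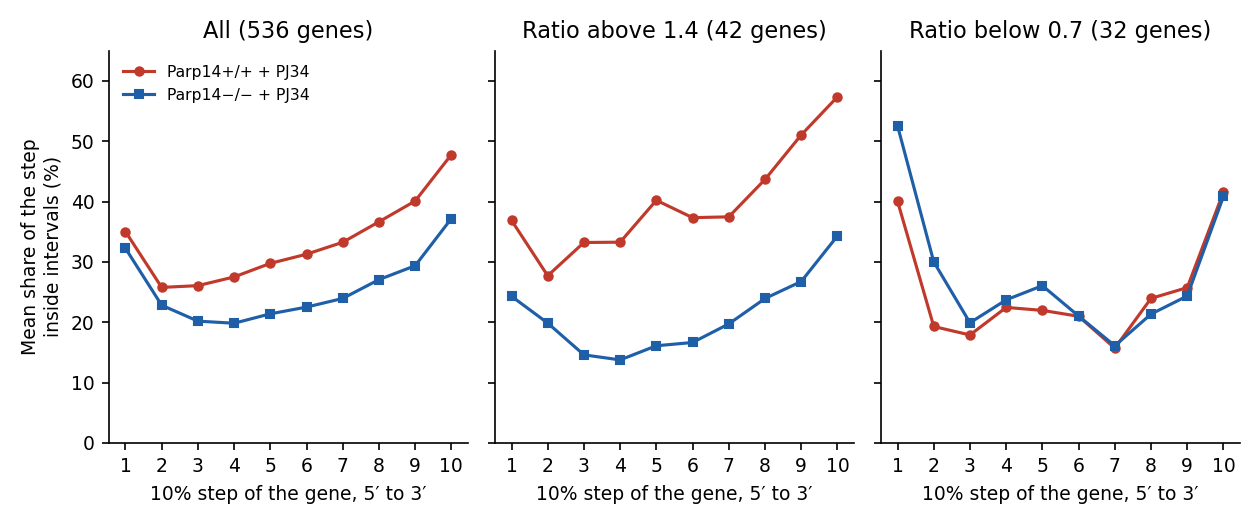
Mean share of each 10% step of the gene that lies inside enriched intervals (%, vertical) from the 5′ to the 3′ end (horizontal), for genes of at least 10 kb past the floor, in *Parp14*+/+ + PJ34 (red circles) and *Parp14*−/− + PJ34 (blue squares). Genes above 1.4 (42) show *Parp14*+/+ + PJ34 higher in each of the 10 steps, and genes below 0.7 (32) show *Parp14*−/− + PJ34 higher in the first 7 steps, with 52.6% against 40.1% in the first and 30.0% against 19.3% in the second. Genes were called from heights of the same 2 libraries, so the direction in both called groups was largely set by the call.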

How the data were processed

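Chromatin of 4 Th2 cultures was immunoprecipitated for RNA Polymerase II phosphorylated on serine 2, with 1 library per condition. The authors used ELAND to align 36 nt reads to mm9, dropped duplicates, brought each library to 8.2 M alignments and called intervals with SICER against Input. They deposited a signal per gene and library, the average peak height, which is a pile-up of fragments, and interval and peak tracks, in which all lengths are multiples of 150 bp. The average height of *Parp14*+/+ + PJ34 was divided by that of *Parp14*−/− + PJ34 and by the median ratio over genes. Summed heights, average height times active regions, were taken as counts in an exact 95% Clopper-Pearson interval, and shares carry Wilson intervals. There was no test and no p-value.

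Genes were named by transcript accession, label or coordinates (RefSeq GRCm38.p6 for names, GENCODE vM1 on mm9), which named 685 of the 702 rows past the floor, and the others keep the label of the table. Members and the 31 gene lists were chosen with earlier results of these data known. Genes named were *Parp14*, the 12 with the highest lower and the 12 with the lowest upper bound, the 5 tallest genes and unshared intervals of each library, members past the floor of the Th2, Th1, STAT, SOCS, IRF, polymerase and PARP lists, the 2 highest and 2 lowest of other lists, and the 3 least and 3 most different from the untreated pair, with some of these left out of the text. *Egr3*, *Btg1*, *H2bc6*, *H2ac4*, *B2m* and list members under the floor were added after their values were seen. The 8 columns of other libraries in the table were not used. Alternatives were other scalings, floors, limits, overlaps, a pseudocount of 1 and the peak track. The scripts (Python 3.11.15, numpy 2.4.6, pandas 2.3.3, scipy 1.17.1, matplotlib 3.10.9) were tested on simulated data.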

Additional observations from a re-analysis of the deposited data

Results flagged for a closer look

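*Fam171b*, a membrane protein gene on chromosome 2, has 2 active regions. Its average height was 29 in *Parp14*+/+ + PJ34 and 41 in *Parp14*−/− + PJ34, and 39 in *Parp14*+/+ and 25.5 in *Parp14*−/−. Its scaled ratio was 0.626 (0.439 to 0.887) with PJ34 and 1.53 (1.06 to 2.22) without, on opposite sides of 1 with both intervals apart from 1. The difference between the pairs was not tested. With the tallest peak of the track over the gene in place of the average, the treated ratio was 1.11.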

How the results depend on the processing

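Counts of genes higher and lower in *Parp14*+/+ + PJ34, 46 and 60, were 111 and 28 without scaling, 50 and 55 with summed heights as the scale and 37 and 69 with the median of the 622 genes. They were 18 and 44 with a floor of 50 on the mean of both libraries (476 genes), 5 and 3 with a floor of 100 (81 genes) and 443 and 404 with a floor of 20 (3910 genes). Limits of 2 and 0.5 gave 0 and 6, and intervals apart from 1 gave 26 and 60. With 1 added to each height they were 36 and 54, with every row counted 47 and 81, and with an interval asked for in the taller library 46 and 60. The tallest peak of the track gave 101 and 102 among 541 genes with an interval in both libraries. The share of calls that were higher was 43.4%, and it was 29.0% with the floor on the mean, 62.5% with the floor of 100, 0% with limits of 2 and 0.5 and 30.2% by the intervals.

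With 50% of an interval to be covered, the overlapped shares were 49.2% for *Parp14*+/+ + PJ34 and 71.9% for *Parp14*−/− + PJ34, and among intervals of a height of 20 or more they were 96.7% and 97.6%. The median of the Th2 list was 0.919 with a floor of 100, that of the polymerase list 0.624 with the floor on the mean, that of immediate early genes 0.811 without scaling, that of the NF-kB list 0.844 and of the splicing list 0.978 with a floor of 20. By the tallest peak, *Fam171b* was 1.11 in place of 0.626, *Inpp5a* 2.31, *Lyst* 2.03, *Marchf6* 1.30, *Taok1* 1.11, *Bcl2* 0.523, the region of *Tnfrsf4* 0.226 and that of *H3f3b* 1.16. The cause was not tested. With 1 library a side, culture and genotype cannot be told apart, and genes near the floor have wide intervals.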
